A study of Homo sapiens with 11 samples.

Results

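The response of OCI-AML3 cells to FHD-286 was described across all measured genes from 6 of the 11 RNA sequencing libraries of the series. The members were chosen by their labels, as the 3 control libraries of the line and the 3 libraries of the same line exposed to 100 nM FHD-286 for 16 h. The rule used no measured value, but earlier results of these data were known when it was set. OCI-AML3 is an established human line of acute myeloid leukaemia (AML), grown here in RPMI medium with 20% fetal serum, and the labels do not say whether its controls received a vehicle. FHD-286 blocks the paired ATPases BRG1 and BRM, and the title of the series concerns the joint use of such inhibitors and FLT3 inhibitors in AML. The other 5 libraries, 3 controls and 2 exposed to the same dose for the same time, come from OCI-AML3-FLT3-ITD, whose name refers to an internal tandem duplication of the kinase FLT3, and they were used only to see where the effect differed between lines. Each group is 1 cell line, so n counts libraries and not independent leukaemias.

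BRG1, encoded by SMARCA4, and BRM, encoded by SMARCA2, are the alternative motors of the BAF (SWI/SNF) complexes, which use ATP to slide or evict nucleosomes. In blood cells these complexes keep enhancers open where the pioneer factor PU.1, encoded by SPI1, and its partners bind, and AML cells are known to depend on BRG1 for high MYC expression. Blocking the motors leaves the subunits in place but stops the remodelling, so target transcripts, not the transcripts of the complex, are where an effect is usually read.

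The 6 libraries held between 58397190 and 75031633 counts, and 16875 genes passed the filter on low counts. Values are CPM, the reads of a gene relative to the size of its library, scaled by TMM composition factors, and 3 counts in a library were worth 0.0384 to 0.0536 CPM, a limit that covers counting error only. Log CPM correlated at 0.993 to 0.996 between libraries of a group and at 0.962 to 0.968 between groups, over genes that are not independent replicates. The labels do not say that replicates were separate cultures, so p-values measure the spread between these libraries, which may be technical. The data are relative to the sum of each library, so less RNA per cell, or a different mixture of cells, cannot be told apart from a change within cells. Markers of myeloid blasts were present in every library, with a summed level of 3053 to 3184 CPM in the controls and 1924 to 1966 CPM with FHD-286. The 10 genes summed were CD33, ANPEP, MPO, LYZ, CSF3R, SPI1, CEBPA, NPM1, FLT3 and PTPRC. Their shares of the sum are not given, and not all of them are particular to blasts.

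The targeted ATPase genes changed little at the RNA level. SMARCA4 (GRCh38 chromosome 19, 10960825 to 11079426, plus strand) stood at 428, 455 and 502 CPM in control replicates 1, 2 and 3 and at 372, 377 and 379 CPM in the treated ones. All 3 treated libraries lay below all 3 controls, and the gene fell by 0.30 on the log2 scale (standard error, SE, 0.05; adjusted p 0.000105, edgeR quasi-likelihood test with Benjamini-Hochberg adjustment). SMARCA2, its alternative, was at 79.5, 84.0 and 82.6 CPM in the controls and 90.7, 91.8 and 92.3 CPM with FHD-286, without overlap, a rise of 0.16 (SE 0.04; adjusted p 0.00361, same edgeR test) that was not called in a fit of all 11 libraries (adjusted p 0.145, edgeR). Such values do not check the labels, because FHD-286 blocks the proteins. Among 27 BAF subunit genes tested, 13 were higher and 9 lower, where 33.6% and 33.5% of all genes tested were, and their median log2 fold change was 0.16. With scaling by library totals in place of TMM factors 16 were higher and 6 lower. Among the subunit genes named by p, BICRAL was at 1.28, BICRA at 0.77 and SS18 at 0.76. The core scaffold gene SMARCC1 was at -0.54, SMARCD2 at -0.59 and the bromodomain subunit gene BRD9 at -0.52. FLT3 itself, the receptor that names the other line, was at 42.3, 40.3 and 40.4 CPM in the controls and at 41.4, 38.7 and 42.5 CPM with FHD-286, with overlapping ranges (log2 fold change -0.01, SE 0.05; adjusted p 0.933, edgeR quasi-likelihood test).

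Across all genes the response was wide and mostly shallow. A gene is named called where its adjusted p was under the threshold of 0.05. Called genes were 11333 of 16875 (67.2%), of which 5677 were higher (33.6% of those tested) and 5656 lower (33.5%). Changes of at least 2-fold were fewer, at 1596 higher (9.46%) and 1228 lower (7.28%), and 5845 called genes moved by less than 1.5-fold. Beyond 8-fold the balance went the other way, with 96 genes higher and 176 lower. The median of all genes was 0.01 on the log2 scale with quartiles of -0.39 and 0.44. Control and treated ranges did not overlap for 11950 of the 16875 genes (70.8%), so separated groups are common and do not mark a gene out. The split between directions rests on the scaling. With scaling by library totals alone, 62.3% of calls were higher and the median of all genes was 0.15, and with upper-quartile scaling these values were 56.7% and 0.09.

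**Figure D1:**
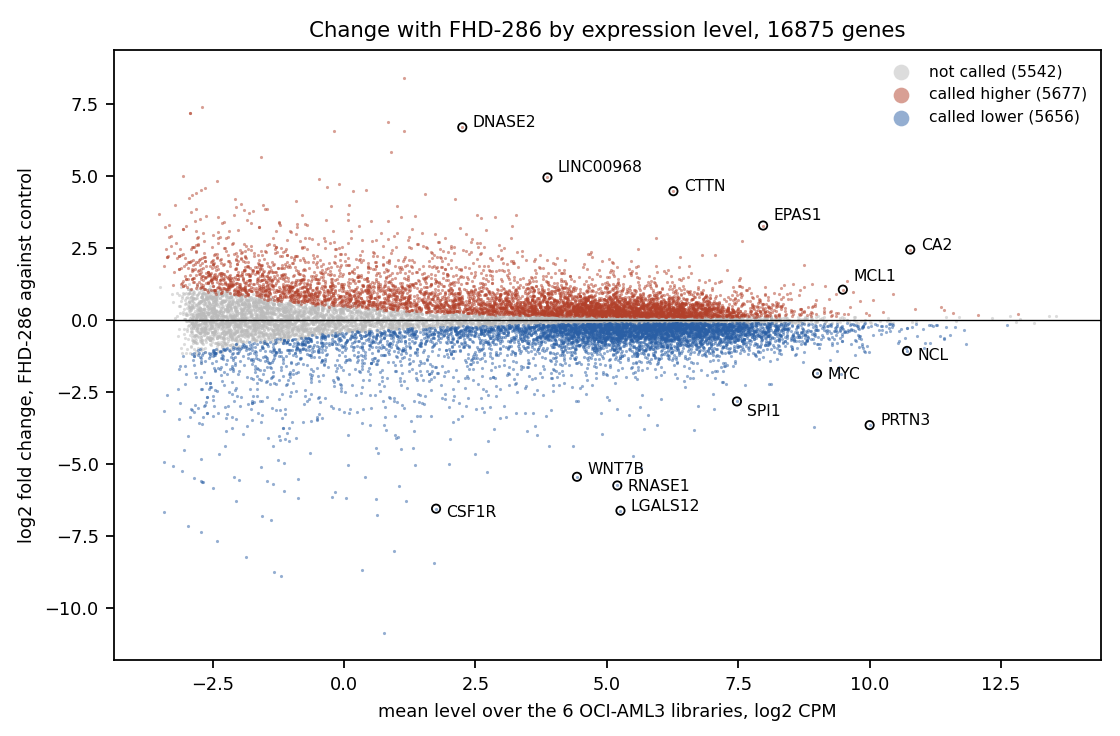
Each point is 1 of 16875 genes, with its mean level over the 6 OCI-AML3 libraries on the x axis (log2 CPM) and its log2 fold change with FHD-286 on the y axis, coloured where called higher (5677) or lower (5656). Calls reach close to the zero line at high levels, LGALS12, CSF1R and SPI1 stand among the deep falls, and CTTN, EPAS1 and CA2 among the rises at high level.

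Among highly expressed genes deep falls outnumbered deep rises, a difference that depended on the scaling. Among 2317 genes with a mean of at least 100 CPM, 38 were at least 2-fold higher and 115 at least 2-fold lower, and the median log2 fold change was -0.18. Below 1 CPM, 822 of 4450 genes were at least 2-fold higher and 436 lower. With library totals these counts were 63 higher and 71 lower at 100 CPM and over (median -0.04) and 990 and 342 below 1 CPM. The largest losses in CPM came from PRTN3, a granule protease gene, from the chaperone genes HSPA8, HSP90AB1 and HSP90AA1, from TUBB, ENO1, NCL, PTMA and FTL, and from RPL8. HSPA8, the constitutive cytosolic chaperone gene, went from 4709.6 ± 329 to 2618 ± 23.2 CPM (mean ± SD, n = 3 libraries per group here and below). PTMA, which encodes prothymosin alpha, went from 2707 ± 79.2 to 1536 ± 28.7 CPM. Carbonic anhydrase 2, encoded by CA2, made the largest gain, from 550.4, 517 and 568 CPM in the controls to 3011, 2935 and 2928 CPM in the treated libraries, with no overlap (rise of 2.44, SE 0.05). Cytoskeletal genes followed, with MYH9, the non-muscle myosin heavy chain gene, going from 975 ± 85.3 to 1828 ± 80.8 CPM, MSN, which encodes the membrane-actin linker moesin, from 2229 ± 132 to 3011 ± 23.4 CPM, and the intermediate filament gene VIM from 432 ± 33.7 to 1097 ± 48.9 CPM. Other genes overlap 16.0% of the exons of TUBB and 24.4% of those of VIM, whose reads cannot be told apart without the strand setting of the counting.

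SPI1, the gene of the pioneer factor PU.1 (GRCh38 chromosome 11, 47354860 to 47378576, minus strand), fell from 303, 297 and 336 CPM in the control libraries to 41.6, 48.5 and 41.6 CPM in the treated ones. The groups were far apart and each was tight, and the gene fell by 2.83 (SE 0.07; adjusted p 4.71e-16, edgeR quasi-likelihood test with Benjamini-Hochberg adjustment). Of 45 haematopoietic transcription factor genes, 25 were lower and 17 higher, 11 and 4 of them at least 2-fold, with a median of -0.27 against 0.01 for all genes. IRF8, a partner of PU.1 in monocyte and dendritic lineages, was at 1031, 987 and 1078 CPM in controls and 307, 324 and 293 CPM with FHD-286. MEF2D, a MADS-box factor that many AML cells require, was at 984, 1012 and 1103 CPM and 339, 332 and 332 CPM. Neither gene had overlapping ranges, and they fell by 1.74 (SE 0.05) and 1.63 (SE 0.05), while the ETS factor gene FLI1 fell by 1.34 (SE 0.04). In the other direction CEBPB, which encodes a C/EBP factor of stress granulopoiesis and macrophages, rose from 28.1, 24.9 and 26.6 CPM to 94.3, 96.8 and 97.5 CPM, and ID2, which encodes an inhibitor of E proteins, from 22.5, 21.3 and 20.2 CPM to 65.8, 67.3 and 66.6 CPM. Both sets of treated values lay above every control (log2 fold changes 1.86 and 1.64), and 11.8% of the exon length of CEBPB lies in another gene.

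Monocyte and macrophage genes gave the lowest median of the gene lists in the plot of list shares. Of 34 tested, 24 were lower, 19 of them at least 2-fold, and 6 were higher, with a median of -1.26. CSF1R, the receptor of macrophage colony-stimulating factor, was at 7.15, 5.64 and 7.19 CPM in the controls and at 0.0660, 0.0768 and 0.0639 CPM with FHD-286, close to the level of 3 counts in a library. MS4A6A, a membrane protein gene of monocytes, went from 6.70, 6.63 and 6.35 CPM to 0.0396, 0.0128 and 0 CPM. Lysozyme, encoded by LYZ, was at 195, 181 and 192 CPM in controls and 12.4, 14.8 and 12.8 CPM in treated libraries. None of these ranges overlapped, and the log2 fold changes were -6.55 (SE 0.21) for CSF1R, -8.43 (SE 0.26) for MS4A6A and -3.83 (SE 0.06) for LYZ. The inhibitory receptor gene LILRB4 fell by 2.11, AIF1, which encodes a calcium-binding protein of activated macrophages, by 2.78, and the protease gene CTSS by 1.80. TREM1, a receptor that amplifies inflammatory signals, went the other way from 1.13, 0.949 and 1.33 CPM to 12.5, 14.7 and 13.2 CPM, and the scavenger receptor gene CD36 rose by 0.88. Other genes overlap 34.0% of the exons of LYZ and 12.96% of those of LILRB4.

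Granule genes were less uniform. Of 17 tested, 9 were lower and 4 higher, with a median of -0.42. PRTN3, which encodes proteinase 3 of azurophil granules, stood at 1864, 1772 and 2062 CPM in the controls and 151, 154 and 148 CPM with FHD-286, while its neighbour in function ELANE, neutrophil elastase, stood at 1176, 1122 and 1316 CPM and 663, 618 and 645 CPM. Every treated value was below every control for both genes, but PRTN3 fell by 3.65 and ELANE by 0.91. MS4A3, a marker of granulocyte and monocyte progenitors, fell by 1.78 and the gelatinase gene MMP9 by 2.81. RNASE2, an eosinophil and neutrophil granule ribonuclease gene, rose by 0.87. CAMP, the gene of the antimicrobial peptide cathelicidin, had 2 counts over the 3 control libraries and 1022 over the treated ones, a ratio of 393 at equal depth with a 95% exact interval of 108 to 3248 that covers counting error only. 18.4% of the exon length of MMP9 lies in another gene.

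**Figure D2:**
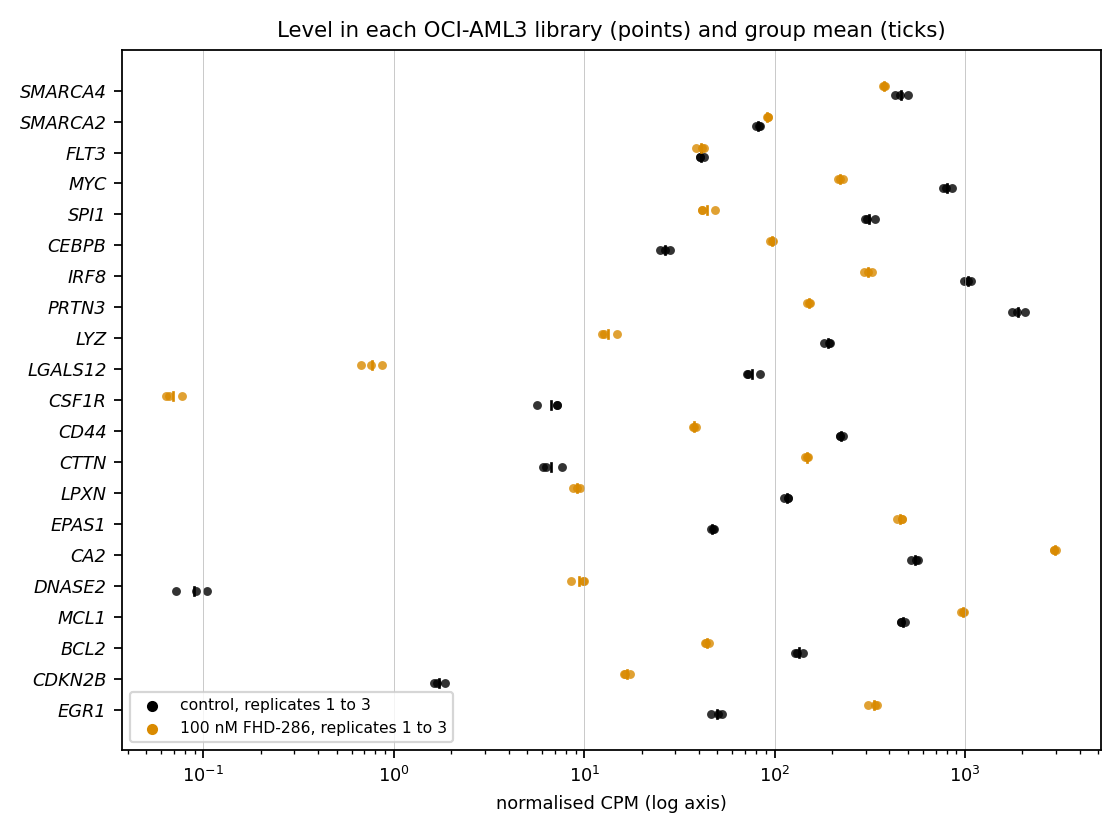
Points are the normalised CPM of single OCI-AML3 libraries (log axis) for 21 genes, black for the 3 controls and orange for the 3 treated libraries, with ticks at group means. FLT3 is the gene whose groups overlap, SMARCA4 and SMARCA2 are close together, and CSF1R, LGALS12, CTTN and DNASE2 show the widest separations among those plotted.

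Promoter sequences are shown so that matches to 4 motifs can be seen in place. They belong to the 4 myeloid list genes with the largest falls and the 4 named genes with the largest rises among those that had exactly 1 promoter window and held a match, so deeper falls such as those of CSF1R, MS4A6A, LYZ and SPI1 are not among them. The motifs were GAGGAAGT (a PU.1-type ETS site), CACGTG (an E-box as bound by MYC and MAX), TGACTCA (an AP-1 site) and GCTGAGTCA (an antioxidant-type site, which holds the reverse complement of TGACTCA), each searched on both strands. RefSeq windows of GRCh38.p14, from 250 bases before to 50 after a start site, were matched by symbol to 7928 of the 16875 genes. The 250 bases before the start are printed 5′ to 3′ on the strand of the gene, with matches in capitals. A match describes letters and not binding. The falls are PRTN3 (chr19:840749-840998, plus strand), TYROBP (chr19:35908296-35908545, minus strand), CD14 (chr5:140633176-140633425, minus strand) and TLR4 (chr9:117704153-117704402, plus strand), and the rises are CAMP (chr3:48223245-48223494, plus strand), ODAD1 (chr19:48321972-48322221, minus strand), SFTPD (chr10:79949106-79949355, minus strand) and ISG20 (chr15:88638766-88639015, plus strand).
PRTN3: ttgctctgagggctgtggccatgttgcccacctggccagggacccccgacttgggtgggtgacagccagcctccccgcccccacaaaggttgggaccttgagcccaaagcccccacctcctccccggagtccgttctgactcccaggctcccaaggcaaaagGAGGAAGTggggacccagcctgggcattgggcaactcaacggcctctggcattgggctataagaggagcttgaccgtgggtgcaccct
TYROBP: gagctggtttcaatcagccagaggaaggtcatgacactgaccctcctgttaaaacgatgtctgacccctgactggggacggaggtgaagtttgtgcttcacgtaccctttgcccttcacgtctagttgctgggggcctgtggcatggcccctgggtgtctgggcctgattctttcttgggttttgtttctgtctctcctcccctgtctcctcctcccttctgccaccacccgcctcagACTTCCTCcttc
CD14: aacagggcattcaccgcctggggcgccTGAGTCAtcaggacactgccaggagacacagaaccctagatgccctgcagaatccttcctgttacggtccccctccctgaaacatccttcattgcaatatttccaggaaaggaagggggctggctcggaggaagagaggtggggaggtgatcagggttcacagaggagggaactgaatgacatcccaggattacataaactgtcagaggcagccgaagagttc
TLR4: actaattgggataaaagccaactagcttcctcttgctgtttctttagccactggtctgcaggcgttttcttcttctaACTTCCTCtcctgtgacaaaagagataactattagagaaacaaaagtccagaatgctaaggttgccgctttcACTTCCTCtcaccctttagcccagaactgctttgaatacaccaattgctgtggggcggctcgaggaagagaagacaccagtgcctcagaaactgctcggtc
CAMP: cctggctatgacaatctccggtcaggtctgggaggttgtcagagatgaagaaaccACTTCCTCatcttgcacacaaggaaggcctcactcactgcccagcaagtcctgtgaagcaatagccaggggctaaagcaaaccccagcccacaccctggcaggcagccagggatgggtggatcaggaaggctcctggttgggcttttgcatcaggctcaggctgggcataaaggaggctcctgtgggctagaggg
ODAD1: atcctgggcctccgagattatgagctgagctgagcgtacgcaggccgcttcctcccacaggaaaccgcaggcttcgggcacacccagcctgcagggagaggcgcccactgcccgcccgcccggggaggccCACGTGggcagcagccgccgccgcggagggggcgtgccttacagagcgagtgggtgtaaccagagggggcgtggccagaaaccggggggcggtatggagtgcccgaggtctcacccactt
SFTPD: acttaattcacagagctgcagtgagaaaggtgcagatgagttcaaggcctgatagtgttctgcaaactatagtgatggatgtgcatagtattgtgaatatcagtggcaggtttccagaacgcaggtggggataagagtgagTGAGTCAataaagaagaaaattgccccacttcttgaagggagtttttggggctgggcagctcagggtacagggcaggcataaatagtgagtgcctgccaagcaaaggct
ISG20: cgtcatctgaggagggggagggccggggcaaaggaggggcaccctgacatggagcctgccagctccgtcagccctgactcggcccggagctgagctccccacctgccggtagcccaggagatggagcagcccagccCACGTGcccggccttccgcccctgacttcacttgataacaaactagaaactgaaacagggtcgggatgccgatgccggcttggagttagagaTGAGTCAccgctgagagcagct

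PRTN3 and TYROBP, which encodes the signalling adaptor DAP12, hold a PU.1-type match 88 and 12 bases before the start, and TLR4, the lipopolysaccharide receptor gene, holds 2 of them. CD14, the co-receptor for lipopolysaccharide, holds an AP-1 match. TYROBP was at -1.79, CD14 at -1.68 and TLR4 at -0.87 on the log2 scale. A PU.1-type match also stands before CAMP, which had the opposite change, so the letters occur on both sides. Among all 7928 windows 2.57% held GAGGAAGT, against 2.51% of genes at least 2-fold higher, 4.36% of genes at least 2-fold lower. TGACTCA was in 2.94% of all windows, 4.29% of those of genes at least 2-fold higher and 4.92% of those at least 2-fold lower. CACGTG was in 10.3% of all windows and in 9.02% and 9.09% of the same sets. GCTGAGTCA was rare, in 0.429% of all windows and in 0.592% and 1.14% of these sets. In the 172 windows of genes at least 4-fold lower, 11 held GAGGAAGT, 13 TGACTCA, 8 CACGTG and 2 GCTGAGTCA. In the 162 of genes at least 4-fold higher the numbers were 6, 6, 12 and 0. These shares are descriptions with no test.

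MYC and the genes of ribosome production fell. MYC, the growth regulator, was at 795, 766 and 849 CPM in the control libraries and at 219, 229.5 and 215 CPM in the treated ones, with no overlap (fall of 1.86 in log2, SE 0.05; adjusted p 4.74e-15, edgeR quasi-likelihood test). Its dimerisation partner MAX was at -0.60 and the antagonist gene MXD4 at 0.59, and MYCL, a paralogue at low level, rose from 9.54, 8.77 and 10.7 CPM to 16.5, 16.1 and 16.2 CPM. Over the 15 MYC network genes tested 7 were lower and 5 higher, with a median of -0.10 that became 0.04 with library totals. Of 50 ribosome biogenesis genes, 47 were lower and 1 higher, against 33.5% and 33.6% of all genes, with a median of -0.79. NCL, which encodes nucleolin of the nucleolus, was at 2241, 2203 and 2387 CPM in controls and 1086, 1104 and 1047 CPM with FHD-286. NOLC1, a nucleolar scaffold gene, was at 525, 524 and 562 CPM and 230.4, 233 and 223 CPM. Both pairs of groups were clear of each other, with log2 fold changes of -1.08 and -1.23, and LYAR (-1.14) and RRP1B (-0.99), other nucleolar genes, fell with them. The exception was RRN3, a factor that recruits RNA polymerase I, with a log2 fold change of 0.12 (SE 0.04) whose call was lost in the fits of 11 and 10 libraries (edgeR adjusted p 0.316 and 0.142), with a replicate block (0.0532) and without control replicate 1 (0.0664) or control replicate 2 (0.131).

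The ribosome's own parts fell too, with a median nearer 0 than that of the genes that assemble it. The lists were not matched for level. With TMM factors, 1306 of all 2317 genes with a mean of at least 100 CPM were lower and 588 higher, with a median of -0.18. Of 85 cytosolic ribosomal protein genes and paralogues, 69 were lower and 1 higher, with a median of -0.24 and 1 fall of at least 2-fold, that of RPL22L1 (-1.15), a paralogue of RPL22. With library totals 45 were lower and 8 higher (median -0.10), and in the fit of 11 libraries 31 and 0. RPL35 was at -0.52 and RPS26 at -0.74, while RPL39L, a paralogue with restricted expression, rose by 0.28. Of 79 mitochondrial ribosomal protein genes, 67 were lower and 4 higher (63 and 9 with library totals) with a median of -0.46, MRPS26 (-1.22), MRPL17 (-1.02) and MRPL3 (-0.76) among them. Of 26 host genes of small nucleolar RNAs, 13 were lower and 1 higher (median -0.20; 9 and 4 with library totals), with SNHG15 at -0.59 and SNHG17 at -0.51. All 18 called genes of 20 aminoacyl-tRNA synthetases were lower (median -0.56), with both phenylalanine subunits FARSA (-0.91) and FARSB (-0.86) and the leucine enzyme gene LARS1 (-0.61) in the list. Ribosomal protein genes have many near-identical pseudogenes, and how reads were divided among them is not given in the sources used here.

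Nucleotide synthesis moved in the same direction. Of 36 enzyme genes, 33 were lower and 1 higher, with a median of -0.60. IMPDH1, which encodes an enzyme committing purines to guanine nucleotides, went from 252, 239 and 279 CPM to 90.4, 92.2 and 88.0 CPM, and PFAS, a step of purine ring synthesis, from 201, 215 and 238 CPM to 76.3, 76.2 and 77.2 CPM. The treated libraries lay below the controls for both (falls of 1.51 and 1.51 in log2). PAICS, another purine enzyme gene, was at -0.99, CTPS1, the CTP synthase gene, at -0.99, and the mitochondrial folate enzyme genes SHMT2 and MTHFD1L at -1.16 and -1.21. The gene that rose was RRM2B (0.52), a p53-inducible ribonucleotide reductase subunit.

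**Figure D3:**
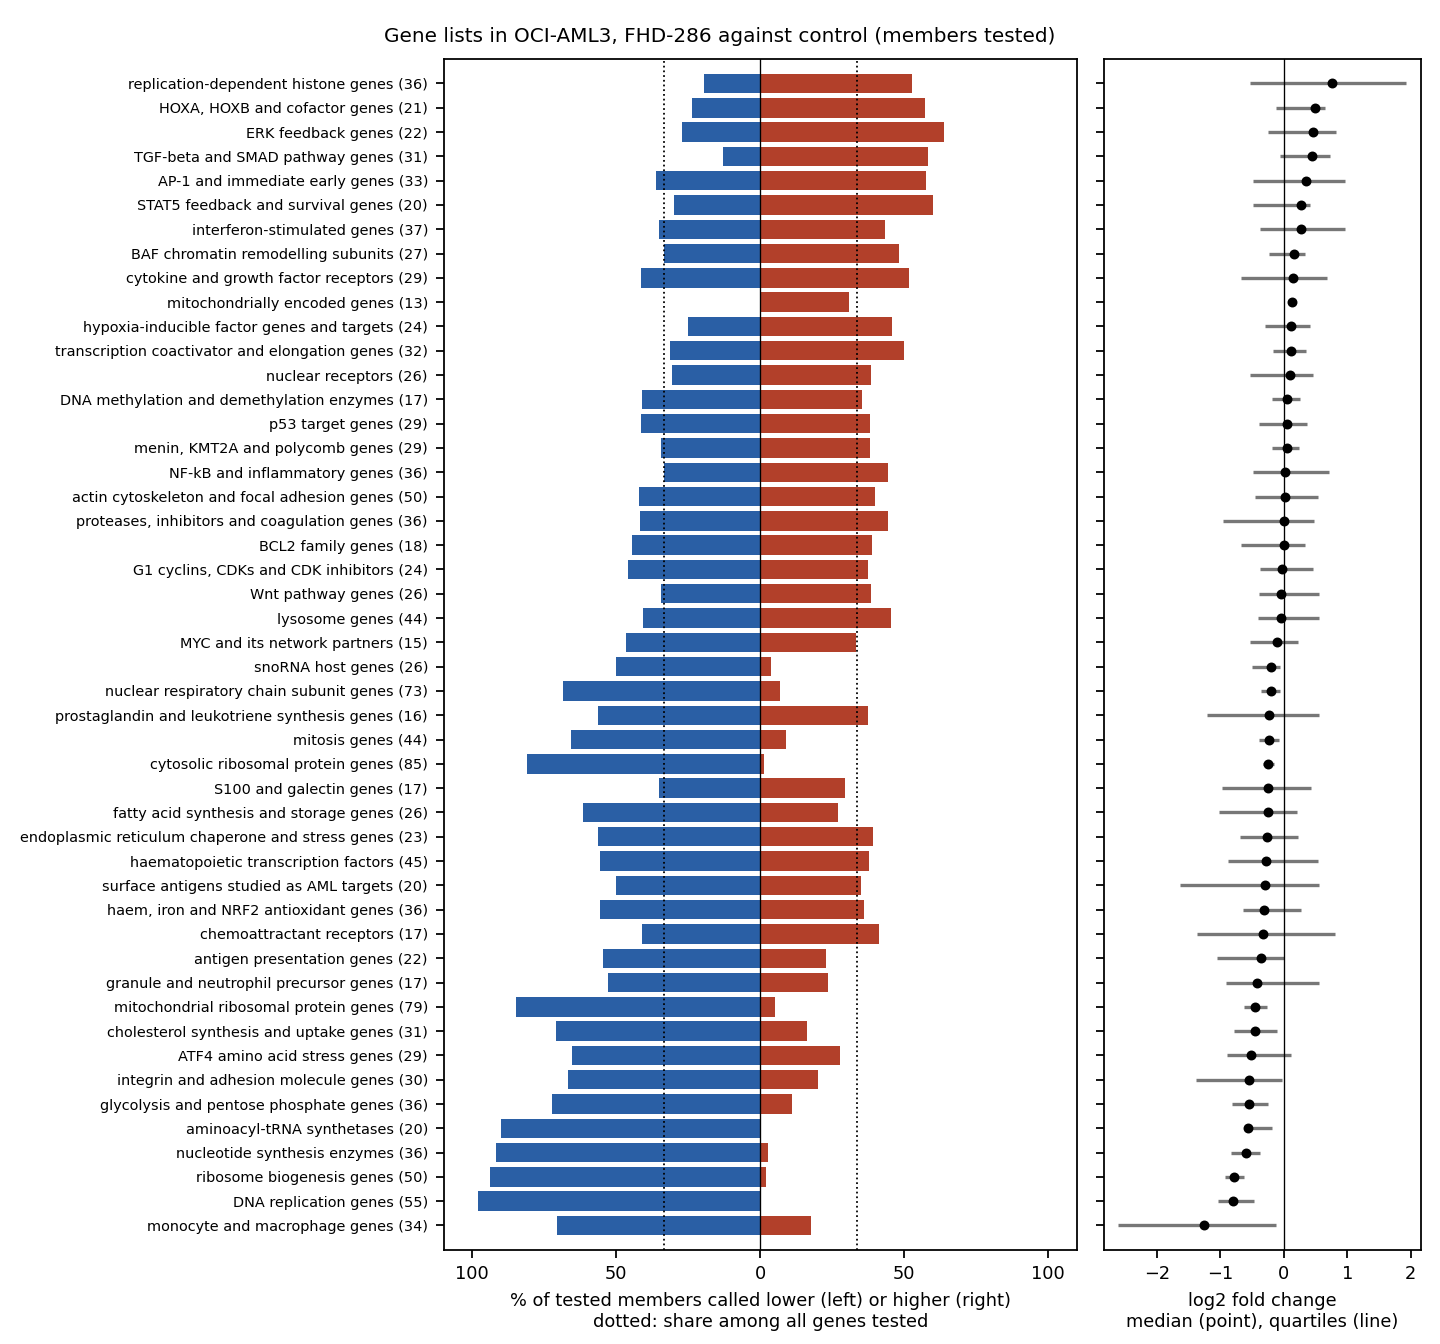
Rows are gene lists with the number of members tested, bars give the % of tested members called lower (left, blue) and higher (right, red), dotted lines give the shares among all 16875 genes (33.5% and 33.6%), and the right panel gives each list's median and quartiles of log2 fold change. Replication, ribosome biogenesis, nucleotide synthesis and tRNA synthetase lists are nearly all blue, and the histone, HOX, ERK feedback and TGF-beta lists lean to red. The dotted shares are not matched to the level of the members.

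DNA replication genes fell almost as a block. Of 55 tested, 54 were lower and none higher, 18 of them at least 2-fold, with a median of -0.81, and the remaining gene, ORC2, is named because it was the exception. CDC6, a loader of the replicative helicase, was at 92.0, 88.5 and 94.4 CPM in controls and 35.4, 36.5 and 35.7 CPM with FHD-286. CDC45, part of the active helicase, was at 78.0, 77.3 and 84.2 CPM and 28.2, 30.6 and 28.1 CPM. Both were separated without overlap (falls of 1.35 and 1.46), and MCM10 (-1.26), MCM4 (-1.18) and the checkpoint adaptor gene CLSPN (-1.05) behaved likewise. Mitosis genes had a median nearer 0. Of 44, 29 were lower and 4 higher (22 and 9 with library totals), with a median of -0.24 and 2 falls of at least 2-fold, those of CDC25A (-1.54), a phosphatase that activates CDKs, and MYBL2 (-1.15), the B-MYB gene. AURKB was at -0.76 and CCNA2 at -0.54, while the kinesin gene KIF4A (0.31) and the cytokinesis gene ECT2 (0.33) were slightly higher.

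Among 24 genes of G1 control, 11 were lower and 9 higher with a median of -0.02, a balance that turned to 8 lower and 12 higher with library totals. CDKN2B, which encodes the CDK4 and CDK6 inhibitor p15, rose from 1.68, 1.85 and 1.63 CPM to 16.4, 16.2 and 17.4 CPM. CCND1, the cyclin D1 gene, rose from 70.1, 72.0 and 73.8 CPM to 244, 232 and 247 CPM. CDK4, the kinase that both act on, went down from 162, 155 and 169 CPM to 75.03, 74.4 and 69.2 CPM. Each of these changes separated the groups completely (log2 fold changes 3.27, 1.74 and -1.15), and E2F1, a driver of S phase genes, fell by 1.08. Other genes overlap 43.2% of the exons of CDK4 and 10.3% of those of CCND1.

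Replication-dependent histone genes were more often higher, unlike the replication genes. Of 36 tested, 19 were higher, 17 of them at least 2-fold, and 7 lower, with a median of 0.76. H2AC6, a histone H2A gene, went from 15.9, 14.5 and 14.8 CPM to 112, 102 and 111 CPM, and H2BC12, a histone H2B gene, from 30.5, 28.2 and 31.0 CPM to 97.8, 90.9 and 95.3 CPM. The treated values of both lay above all controls. H2BC5 (2.26), H2AC11 (2.11) and H4C9 (1.61) also rose, and H4C1 (-1.54) and H2AC20 (-0.84) fell at levels near 1 CPM. Histone genes are near-identical copies, most of their transcripts lack a poly(A) tail, and the labels give no selection step, so their levels are uncertain.

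HOX genes, which set progenitor identity and are highly expressed in AML with mutated NPM1, were more often higher. Of 21 HOXA, HOXB and cofactor genes, 12 were higher and 5 lower, with a median of 0.49. HOXA9 went from 51.0, 52.1 and 50.2 CPM to 80.0, 80.4 and 79.8 CPM and HOXA13 from 157, 161 and 159 CPM to 242, 246 and 258 CPM. Both had treated values above the controls, at 0.65 and 0.65 in log2. HOXB5 rose by 2.67, and HOXB9 (-1.70) and HOXA5 (-1.38) fell. 27.0% of the exon length of HOXA9 lies in another gene. The balance of other chromatin lists depended on the scaling. With TMM factors 11 of 29 menin, KMT2A and polycomb genes were higher and 10 lower (median 0.05), and 18 and 7 with library totals, with EZH2, the H3K27 methyltransferase gene, at -0.42, RNF2 at 0.51, CBX2 at -0.68 and NPM1 at -0.74. Of 32 coactivator and elongation genes 16 were higher and 10 lower (median 0.11), and 20 and 5 with library totals, with the acetyltransferase gene KAT2B going from 8.20, 9.05 and 8.19 CPM to 43.5, 42.3 and 44.3 CPM and its paralogue KAT2A at -0.46. HEXIM1, an inhibitor of the elongation factor P-TEFb, rose by 1.38. Other genes overlap 14.4% of the exons of HEXIM1 and 10.7% of those of KAT2A. Among 17 DNA methylation and demethylation genes, 7 were lower and 6 higher (4 and 10 with library totals). The shares over all genes tested were 33.5% lower and 33.6% higher with TMM factors. UHRF1, the partner of DNMT1, was at -1.21, the dehydrogenase genes IDH2 and IDH1 at -1.49 and -0.88, and the dioxygenase gene TET2 at 0.94.

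Cytoskeletal and adhesion genes held some of the deepest changes in both directions. CTTN, which encodes the actin branch stabiliser cortactin, rose from 6.07, 6.29 and 7.63 CPM to 150.0, 144 and 149 CPM (log2 fold change 4.47, SE 0.07; adjusted p 2.49e-18, edgeR quasi-likelihood test). PTK2, the focal adhesion kinase gene, rose from 2.43, 1.96 and 2.27 CPM to 16.9, 15.2 and 15.7 CPM, and SYNE1, which encodes the nuclear envelope linker nesprin-1, from 1.25, 1.42 and 1.56 CPM to 17.7, 16.2 and 19.5 CPM. In the same libraries LPXN, which encodes leupaxin, a focal adhesion protein of leukocytes, fell from 117, 111 and 117 CPM to 9.20, 8.76 and 9.49 CPM. CORO1A, the coronin of leukocytes, went from 321, 301 and 360.0 CPM to 69.6, 68.3 and 66.9 CPM and FLNA, the filamin A gene, from 1020.0, 1136 and 1179 CPM to 293, 315 and 296 CPM. No range overlapped for these 6 genes, 3 of which rose and 3 of which fell. Over all 50 genes of the list 21 were lower and 20 higher (17 and 25 with library totals), with a median of 0.01. 11.1% of the exon length of CORO1A lies in another gene.

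Adhesion receptors were mostly lower, at 20 of 30 against 6 higher, with a median of -0.55. CD44, the hyaluronan receptor that marks AML blasts, was at 228, 221 and 219 CPM in controls and 37.3, 37.5 and 38.4 CPM with FHD-286. SELPLG, the selectin ligand PSGL-1, was at 98.5, 93.1 and 107 CPM and 10.01, 11.4 and 8.97 CPM. The groups did not overlap for either gene (falls of 2.56 and 3.30), and ITGAL, the LFA-1 alpha chain gene, fell by 1.43 and the tetraspanin gene CD53 by 0.66. ITGA6 and ITGAV, integrin chains that bind laminin and RGD ligands, were the other way at 1.80 and 0.84.

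**Figure D4:**
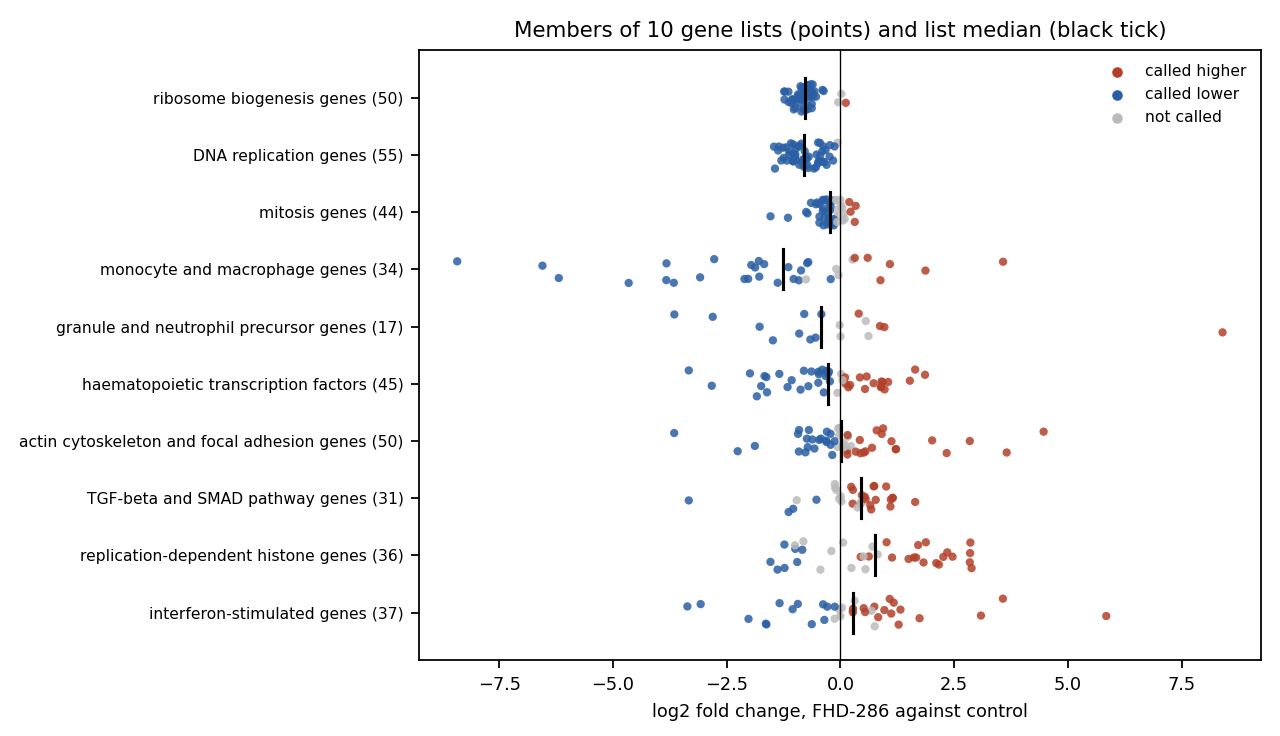
Each point is the log2 fold change of 1 tested member of 10 gene lists, red where called higher, blue where called lower and grey where not called, with the list median as a black tick. Ribosome biogenesis and replication genes form tight groups around -0.79 and -0.81, monocyte genes spread far to the left of their median of -1.26, and actin genes lie on both sides of 0.

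Lipid and sugar metabolism genes were mostly lower. Of 31 cholesterol genes, 22 were lower and 5 higher, with a median of -0.46. INSIG1, the sterol sensor partner gene, was at 239, 227 and 225 CPM in controls and 75.1, 77.5 and 73.8 CPM with FHD-286. ABCA1, which exports cholesterol, rose from 8.34, 9.88 and 7.28 CPM to 37.4, 43.2 and 44.0 CPM. Neither gene had overlapping groups. Of 26 fatty acid genes, 16 were lower and 7 higher (13 and 10 with library totals, median -0.25 with TMM), and the 3 desaturase genes named by the rule moved together, with FADS2 going from 236, 229 and 263 CPM to 55.2, 54.3 and 55.1 CPM, SCD at -1.48 and FADS1 at -1.43. ACSL5, an acyl-CoA synthetase gene, was at -1.65 and FABP5, a fatty acid carrier gene, at -1.64. Of 36 glycolysis and pentose phosphate genes, 26 were lower and 4 higher (median -0.55). The phosphofructokinase genes PFKL and PFKM were at -1.10 and -1.51, and LDHA, lactate dehydrogenase A, went from 1263, 1169.8 and 1295 CPM to 635, 634 and 637 CPM. The glucose transporters moved apart, SLC2A1 at -1.24 and SLC2A3 at 1.39, and HK2, a hexokinase gene, rose by 0.65.

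Amino acid, iron and respiratory genes showed mixed detail within lower medians. Of 29 ATF4 targets, 19 were lower and 8 higher (median -0.51), with GPT2 (-1.49), PCK2 (-1.37) and ALDH1L2 (-1.24) lower and the cystine transporter gene SLC7A11 rising from 11.2, 10.7 and 8.84 CPM to 34.8, 37.5 and 37.3 CPM. Of 36 haem, iron and antioxidant genes, 20 were lower and 13 higher (median -0.32). Ferritin chains moved apart: FTL, the light chain, went from 2174, 2053 and 2358 CPM to 1131, 1079.8 and 1109 CPM and FTH1, the heavy chain, from 158, 155 and 170.3 CPM to 364, 342 and 353 CPM, without overlap in either. HMOX1, haem oxygenase 1, rose from 0.607, 0.766 and 1.19 CPM to 10.9, 9.69 and 11.6 CPM, and the transferrin receptor gene TFRC fell by 0.88. 62.4% of the exon length of FTH1 lies in other genes, whose reads cannot be told apart from its own here. Of 73 nuclear genes of the respiratory chain, 50 were lower and 5 higher (median -0.21), and 31 and 14 with library totals (median -0.06), with ATP5MC1, an ATP synthase ring gene, at -1.11 and NDUFA8 of complex I at -0.91. This list was not matched for level, and all genes with a mean of at least 100 CPM had a median of -0.18 with TMM factors. Of 13 mitochondrially encoded genes, 4 were higher and none lower (median 0.12), MT-CYB at 0.33 among them. With upper-quartile scaling 9 were higher and with library totals all 13 (median 0.26). Mitochondrially encoded counts made up 4.14% to 4.94% of control libraries and 5.11% to 6.09% of treated ones. Their part in the other results was not tested.

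EPAS1, which encodes the hypoxia-inducible factor HIF-2 alpha, rose from 46.1, 47.1 and 48.0 CPM to 463, 438 and 467 CPM, with treated values far above all controls (log2 fold change 3.28, SE 0.05; adjusted p 2.49e-18, edgeR quasi-likelihood test). Of 24 hypoxia-inducible factor genes and targets, 11 were higher and 6 lower (median 0.12). NDRG1, a stress-induced target, rose from 172, 173 and 196 CPM to 690.0, 675 and 674 CPM, KDM3A rose by 0.58 and P4HA2 by 0.92, while PDK1 fell by 0.91. Endoplasmic reticulum genes were lower in 13 and higher in 9 of 23 cases (median -0.26). XBP1, the stress transcription factor gene, rose from 269.6, 256 and 276 CPM to 585, 608 and 579 CPM, and the chaperone genes CALR, HSP90B1 and MANF were at -0.90, -0.79 and -0.91. Lysosome genes were near balance, at 20 higher and 18 lower of 44 (median -0.05, 0.09 with library totals), but DNASE2, the acid DNase gene, went from 0.0715, 0.0919 and 0.105 CPM to 9.80, 8.47 and 9.98 CPM. That rise of 6.69 (SE 0.18) was the largest among genes whose average log2 CPM reached 2 and whose groups were separated, and the protease gene CTSL rose by 1.11.

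Cytokine and chemokine receptors changed in both directions. Of 29 cytokine and growth factor receptor genes, 15 were higher and 12 lower, with a median of 0.14. CSF2RB, the shared chain of the receptors for IL-3, IL-5 and GM-CSF, went from 48.0, 45.3 and 49.2 CPM to 14.3, 13.3 and 13.1 CPM, and CSF3R, the G-CSF receptor gene, from 69.1, 73.1 and 73.8 CPM to 32.3, 37.2 and 31.9 CPM. IL4R went up from 32.6, 33.8 and 36.8 CPM to 108, 103 and 105 CPM and TGFBR1, the type I TGF-beta receptor gene, from 123, 128 and 105 CPM to 248, 281 and 260.3 CPM. None of the 4 had overlapping groups, and their log2 fold changes were -1.81, -1.09, 1.61 and 1.15. Chemoattractant receptors numbered 7 higher and 7 lower of 17 (median -0.33), where 33.6% and 33.5% of all genes tested were. CXCR2, the receptor of neutrophil chemokines, was at -2.90, CCR2 at -1.58, P2RY2 at -1.44 and CCR1 at 0.81. Of 20 surface antigens studied as AML targets, 10 were lower and 7 higher (median -0.29). CD93 was at -1.48 and CD244 at -4.0, while ANPEP, the aminopeptidase CD13, rose from 18.9, 18.4 and 21.7 CPM to 67.1, 66.7 and 66.0 CPM and ADGRE2 rose by 0.89 with 15.7% of its exon length shared with another gene.

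Signalling outputs leaned to higher levels. EGR1, an immediate early factor gene, rose from 50.5, 46.4 and 52.9 CPM to 337, 309 and 346 CPM, and NAB2, which encodes its corepressor, from 49.0, 46.4 and 51.9 CPM to 145, 129 and 140.2 CPM. Both were separated, at 2.73 and 1.49 in log2. Of 33 AP-1 and immediate early genes, 19 were higher and 12 lower (median 0.35), with BATF (-1.90) and FOSL1 (-1.50) among the falls. Of 22 ERK feedback genes, 14 were higher and 6 lower (median 0.46), with SPRY1 (1.80) and ETV5 (0.83) up and the phosphatase genes DUSP2 (-1.64) and DUSP3 (-0.96) down. In the STAT5 list 12 of 20 were higher and 6 lower (median 0.27), with SOCS3 (2.38) and STAT3 (1.29) higher and the STAT5-induced gene CISH (-1.65) lower. TGF-beta and SMAD genes were higher in 18 and lower in 4 of 31 cases (median 0.45), with SMAD3 going from 31.9, 30.8 and 30.8 CPM to 63.5, 61.5 and 62.7 CPM, BMPR2 at 1.10, and the inhibitor gene ID3 falling from 4.52, 4.66 and 5.09 CPM to 0.396, 0.486 and 0.524 CPM. Wnt genes were balanced at 10 higher and 9 lower of 26 (median -0.04, 0.11 with library totals), against 33.6% and 33.5% of all genes. Even so, the ligand genes WNT7B (-5.45) and WNT10B (-3.19) fell deeply.

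Inflammatory and interferon genes changed in both directions, where 33.6% of all genes were higher and 33.5% lower. At least 2-fold, 8 of 36 NF-kB and inflammatory genes were higher and 5 lower, and 9 and 7 of 37 interferon-stimulated genes. Over all genes tested the 2-fold shares were 9.46% higher and 7.28% lower. Of 36 NF-kB and inflammatory genes, 16 were higher and 12 lower (median 0.02). IL1B, the interleukin-1 beta gene, rose from 12.6, 11.7 and 12.4 CPM to 50.9, 59.8 and 49.7 CPM and OSM, the oncostatin M gene, from 3.86, 2.76 and 3.06 CPM to 16.9, 14.6 and 17.3 CPM, with no overlap in either. The inhibitor gene NFKBIE fell by 1.67. Of 37 interferon-stimulated genes, 16 were higher and 13 lower (median 0.27), with ISG20 going from 0.357, 0.322 and 0.297 CPM to 4.04, 3.49 and 4.13 CPM and the DNA sensor gene IFI16 rising by 1.32, against BST2 (-0.94) and the restriction factor gene TRIM22 (-3.37, exon overlap 10.7%). Antigen presentation genes were lower in 12 and higher in 5 of 22 cases (median -0.36). The immunoproteasome gene PSMB9 went from 25.8, 24.99 and 28.3 CPM to 7.02, 6.73 and 6.24 CPM and the invariant chain gene CD74 from 63.9, 58.2 and 68.5 CPM to 28.5, 28.5 and 28.5 CPM, while HLA-E, a ligand of NK cell receptors, rose from 554, 529 and 586 CPM to 1114, 1021 and 1114 CPM. Prostaglandin synthases exchanged places: PTGS1 (COX-1) went from 13.8, 14.5 and 15.6 CPM to 2.07, 1.42 and 1.98 CPM and PTGS2 (COX-2) from 1.30, 1.55 and 1.15 CPM to 11.3, 11.1 and 12.5 CPM. PTGER2, a prostaglandin E2 receptor gene, had 140 counts in all 3 controls together and 0 with the drug, at least 60.7-fold lower against a floor of 3 counts over the group.

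Survival genes moved in opposite directions. MCL1, an antiapoptotic gene that many AML cells need, rose from 462, 463 and 481 CPM to 976, 954 and 982 CPM, and BCL2, the target of venetoclax, fell from 131, 141 and 128 CPM to 43.8, 45.2 and 42.9 CPM. Treated and control values were apart for both (log2 fold changes 1.05, SE 0.05, and -1.60, SE 0.05). Over 18 BCL2 family genes 8 were lower and 7 higher, and 7 and 8 with library totals. The BH3-only genes BIK, PMAIP1 (NOXA) and BID were at -3.33, -1.32 and -0.76, BBC3 (PUMA) at 0.53 and the effector gene BAX at -0.70. Of 29 p53 targets, 12 were lower and 11 higher (8 and 15 with library totals), with TP53INP1 (2.07) and TP53I3 (2.54) the furthest up among those named and PLK3 at -1.19. Of 26 nuclear receptor genes, 10 were higher and 8 lower (13 and 7 with library totals). Over all genes tested 33.6% were higher and 33.5% lower. PPARG, a regulator of lipid genes in macrophages, rose from 13.01, 13.6 and 13.5 CPM to 44.2, 43.1 and 45.9 CPM. The vitamin D receptor gene VDR fell by 1.52 and NR1D2 by 1.97.

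Further deep falls included genes of leukocytes and myeloid cells. LGALS12, which encodes a galectin of adipocytes and myeloid cells, was at 72.0, 71.4 and 84.1 CPM in the controls and 0.673, 0.755 and 0.869 CPM with FHD-286 (fall of 6.62 in log2, SE 0.10). LGALS9, another galectin gene, was at 38.5, 36.3 and 42.7 CPM and 1.91, 1.74 and 2.01 CPM. The groups were far apart in both. GPR132, a G protein-coupled receptor gene of leukocytes, fell by 4.36, GAL, the neuropeptide galanin, by 3.96, CD300LF, an inhibitory receptor gene of myeloid cells, by 3.85 and LST1 by 3.79. Among genes that reach 100 CPM, PPP1R27, a phosphatase regulator gene, went from 900.3, 852 and 988 CPM to 71.7, 64.1 and 70.6 CPM, CYBB, the catalytic subunit of the phagocyte oxidase, from 236, 239.5 and 229.9 CPM to 25.2, 31.4 and 26.5 CPM, and BTK, a kinase downstream of antigen and Fc receptors, from 190.2, 178 and 198 CPM to 22.8, 26.2 and 22.4 CPM. Of 17 S100 and galectin genes tested, 6 were lower and 5 higher (median -0.25), where 33.5% and 33.6% of all genes were. Protease, inhibitor and coagulation genes numbered 15 lower and 16 higher of 36 (median 0.00). Within these mixed lists S100A4 and S100A9, calcium-binding proteins of myeloid cells, fell by 2.82 and 1.88. CST7, which encodes cystatin F, fell by 3.24 and SERPINA1, the alpha-1 antitrypsin gene, by 2.49. Rises included that of CELSR1, an adhesion GPCR gene, from 43.3, 46.2 and 47.9 CPM to 221, 217 and 225 CPM. The RNA-binding protein gene RBM47 went from 29.9, 30.8 and 29.3 CPM to 138, 136 and 139 CPM. KREMEN1, a receptor for Dickkopf proteins, was at 1.86. SYP, the synaptophysin gene, and AQP3, an aquaglyceroporin gene, rose by 4.21 and 3.54 from levels under 2 CPM.

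A small set went from expressed to near absent or the reverse. With bounds of 0.1 CPM in 1 group and 1 CPM in the other, 13 called protein-coding genes went off and 9 came on. Genes of other types were not counted. CD180, a Toll-like receptor homologue of myeloid and B cells, fell from 602 counts over the control group to 0, at least 261-fold lower against a floor of 3 counts over the group. LILRA1, a leukocyte immunoglobulin-like receptor gene, had 453 and 1, a ratio of 589 with a 95% exact interval of 105 to 23330. CD209, the lectin DC-SIGN, was at 2.73, 2.45 and 2.50 CPM and 0.0132, 0.0512 and 0.102 CPM, and CACNA2D3, a calcium channel subunit gene, at 3.77, 4.58 and 5.13 CPM and 0.119, 0.0384 and 0.0128 CPM. In the other direction SEMA3D, a guidance ligand gene, had 3 and 403 counts (ratio 103, interval 35.1 to 503). SULT2B1, a sterol sulfotransferase gene, was at 0.107, 0.0613 and 0.122 CPM in controls and 2.20, 1.88 and 2.34 CPM with FHD-286, and SFTPD, the surfactant protein D gene, at 0.0715, 0.123 and 0.105 CPM and 1.66, 1.70 and 1.38 CPM. Intervals of ratios cover counting error only.

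Markers of other cell types were low or came from a single gene. Erythroid and megakaryocyte markers summed to 20.0 to 23.1 CPM in the controls and 46.3 to 49.2 CPM with FHD-286, mostly from EPOR, the erythropoietin receptor gene (18.4, 18.9 and 21.1 CPM against 44.7, 42.1 and 45.0 CPM), and 8 of 16 were at 0 in all 6 libraries, among them HBB, HBA1 and HBA2. Lymphoid markers summed to 276 to 314 CPM and 242 to 248 CPM, nearly all of it CD4, which monocytic cells express, and CD3E, CD2, CD8A and CD79B were at 0. Stromal, endothelial and epithelial markers summed to 0.858 to 0.945 CPM and 0.614 to 0.792 CPM, with 6 of 15 at 0. The part of these markers in the other results was not tested.

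The effect in OCI-AML3 was compared with that in OCI-AML3-FLT3-ITD by an interaction in all 11 libraries. It was called for 635 of 18908 genes (3.36%), and for 3177 of 18662 (17%) without control replicate 2 of OCI-AML3-FLT3-ITD, whose FLT3 level and many others depart from its group. Differences are given as the log2 fold change in the FLT3-ITD line minus that in OCI-AML3. CEBPB rose by 1.86 in OCI-AML3, and in the FLT3-ITD line it stood at 92.0, 52.6 and 83.7 CPM in controls 1, 2 and 3 and at 39.7 and 60.0 CPM in the treated libraries, a log2 fold change of -0.61 (difference -2.46, SE 0.30; adjusted p 0.00273, edgeR quasi-likelihood test). Without control replicate 2 of OCI-AML3-FLT3-ITD that difference was -2.66. CRISPLD2, a secreted lipopolysaccharide-binding protein gene, rose by 1.83 in OCI-AML3 and was at -1.77 in the other line, a difference of -3.59, and without that library the last 2 values were -1.05 and -2.86. DDIT4, the stress-induced mTORC1 inhibitor gene, was at 1.33 and -0.99. EGR1 rose in OCI-AML3 by 2.73 and was at 0.43 in the other, where it stood at 238, 112 and 235 CPM in the controls and 270.2 and 255 CPM in the treated libraries. ICAM1, an adhesion ligand gene, fell further in OCI-AML3 (-2.66 against -1.20), as did TDRD7 (-1.68 against -0.32) and the neurofilament gene NEFH (-1.81 against -0.45). The replication genes named above, CDC6, CDC45, MCM4, MCM10 and CLSPN, differed with more of a fall in OCI-AML3, by 1.26, 0.93, 1.02, 1.23 and 1.07. Other genes overlap 41.2% of the exons of DDIT4, 23.6% of those of ICAM1 and 11.8% of those of CEBPB. Without treated replicate 1 of OCI-AML3-FLT3-ITD 105 genes were called, and CRISPLD2, DDIT4, EGR1, ICAM1, CDC6, CDC45, MCM10 and CLSPN were not (edgeR adjusted p 0.0587 to 0.0894). Without its treated replicate 2, 184 were called, and CRISPLD2, DDIT4, EGR1, CDC6 and CDC45 were not (0.0526 to 0.0599). The count was 185 to 297 without any 1 of the OCI-AML3 libraries, where CDC6 lost its call without treated replicate 3 (0.0519), and 1200 without control replicate 1 of OCI-AML3-FLT3-ITD. In the test on all 11 libraries CTTN, EPAS1, MYC, PRTN3, CSF1R and LGALS12 were not called, which does not show that they responded alike. Without control replicate 2 of OCI-AML3-FLT3-ITD differences were called for CTTN (0.84, edgeR adjusted p 8.45e-05), EPAS1 (0.77, 9.31e-06), PRTN3 (0.57, 0.00131) and LGALS12 (0.67, 0.0355), and not for MYC and CSF1R.

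**Figure D5:**
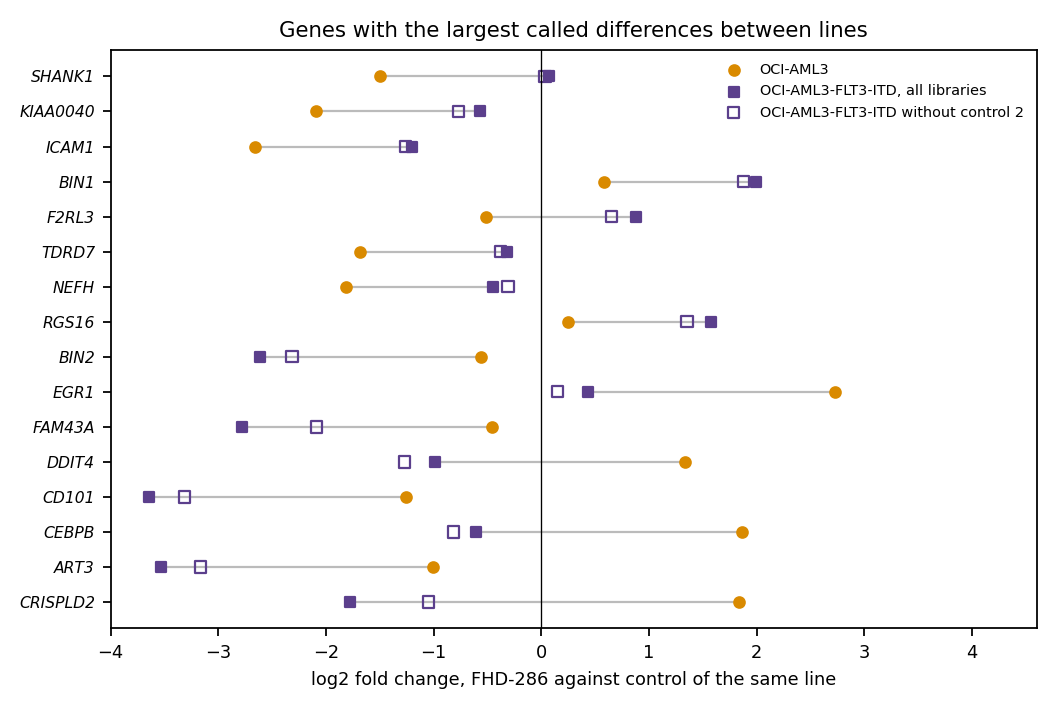
Log2 fold changes with FHD-286 (x axis) in OCI-AML3 (orange) and in OCI-AML3-FLT3-ITD with all its libraries (filled squares) or without its control replicate 2 (open squares), for the 16 named genes with the largest called differences. CEBPB, CRISPLD2 and DDIT4 rise in OCI-AML3 and lie below 0 in the other line, and ICAM1, TDRD7, NEFH and SHANK1 lie lower in OCI-AML3.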

How the data were processed

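Total RNA of 6 OCI-AML3 libraries (3 controls, 3 with 100 nM FHD-286 for 16 h) was described, with 5 libraries of OCI-AML3-FLT3-ITD for the difference between lines. The authors deposited raw whole-number counts for 58037 gene identifiers, not normalised. Per the submitters' processing notes the aligner was STAR and the genome build hg38. The counting program, strand setting and annotation are not given in the sources used here. Coordinates and symbols are from GENCODE 29, which held 57429 of the identifiers.

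Genes were kept by filterByExpr (minimum count 10, total 15), scaled by TMM and tested with edgeR 4.0.16 in R 4.3.3 (glmQLFit, glmQLFTest, two-sided, 1 mean per group, 4 residual degrees of freedom), with Benjamini-Hochberg adjustment over all genes tested. The main model held only the 6 OCI-AML3 libraries. The common biological coefficient of variation was 0.0481, against 0.193 with all 11. The SE of a log2 fold change is approximate and was taken as its size over the root of F. The model was also checked on generated counts with known answers. Alternatives were 3 other scalings, 2 filters, DESeq2 1.42.0, limma 3.58.1 voom, fits of 11 or 10 libraries, a replicate block, a minimum change and leaving out each library.

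Named genes were SMARCA4, SMARCA2, MYC, SPI1 and FLT3, the 15 largest changes in each direction among called genes with average log2 CPM of at least 2 and separated ranges, the 10 largest where the higher group reached 100 CPM, the 10 largest gains and losses of CPM, the 5 largest noncoding changes, up to 6 members of a list by p and 2 of its minority direction, up to 8 genes that went on or off, and the 8 largest differences between lines. Not all of them are printed, some items are not reported here, and ORC2, the promoter genes and the neighbour pairs fall outside the rule. The members and the 53 gene lists were chosen with earlier results of these data known. Lists are described by counts and medians with no test. Replicates differed by more than sampling noise (chi-square per gene 4.65 to 18.8 within groups), so none was a duplicate.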

Additional observations from a re-analysis of the deposited data

Results flagged for a closer look

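The effect of FHD-286 differed between the lines for 49 of the 256 genes named here or shown in the plot of line differences, by the interaction test in all 11 libraries. Over all genes it was called for 635 of 18908 (3.36%). The named genes include the 8 largest called differences in each direction, picked by this same test. The 49 are therefore a list and not a share to set against that of all genes. The values below are the log2 fold change in OCI-AML3-FLT3-ITD minus that in OCI-AML3, each called at an adjusted p of 0.05 by edgeR (quasi-likelihood, Benjamini-Hochberg over 18908 genes). Without control replicate 2 of OCI-AML3-FLT3-ITD all 49 were called and kept their sign, with CRISPLD2 at -2.86 and FAM43A at -1.62. Of the 49, 31 were not called without treated replicate 1 of that line and 25 without its treated replicate 2. Each of the 6 OCI-AML3 libraries left out in turn ended 13 to 17 of the calls, and those of E2F1, F2RL3, FAM43A, FLI1, IFI16, LGALS9, PAICS, PTMA, RGS16, VDR and XBP1 were lost whichever of the 6 was left out.

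Replication and cell cycle genes that fell in OCI-AML3 had positive differences, at CDC6 (1.26), MCM10 (1.23), CDC25A (1.19), CLSPN (1.07), MCM4 (1.02), CDC45 (0.93), E2F1 (0.88), CCNA2 (0.73) and AURKB (0.60). CCNA2 was at -0.54 in OCI-AML3 and 0.17 in the other line. The same sign was found for the purine enzyme gene PAICS (0.53), for PTMA (0.64), the desaturase genes FADS2 (1.10) and FADS1 (0.69), the phosphatase gene DUSP3 (0.79) and the receptor gene VDR (0.61).

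Among leukocyte genes that fell in OCI-AML3 the differences had both signs. Positive values were found for ICAM1 (1.47), LPXN (0.98), LYZ (0.79) and LGALS9 (0.66), and for SHANK1 (1.58), KIAA0040 (1.53), F2RL3 (1.402), TDRD7 (1.38) and NEFH (1.38) outside that group. Negative values were found for CSF2RB (-1.64), ITGAL (-1.26), SPI1 (-0.78), MS4A3 (-0.74), CSF3R (-0.60) and FLI1 (-0.50), and for ART3 (-2.51), CD101 (-2.37, exon overlap 10.3%), FAM43A (-2.30) and BIN2 (-2.04).

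Genes that rose in OCI-AML3 had differences of both signs. Positive ones were those of BIN1 (1.43) and RGS16 (1.35). Negative ones were those of CRISPLD2 (-3.59), CEBPB (-2.46), DDIT4 (-2.31), EGR1 (-2.28), H2BC4 (-2.19), CDKN2B (-1.28), HLA-E (-1.22), LINC00968 (-1.19), CA2 (-1.11), SLC39A13 (-1.01), XBP1 (-0.97), KREMEN1 (-0.57) and IFI16 (-0.48). HLA-E was at 0.96 in OCI-AML3 and -0.27 in the other line, and XBP1 at 1.15 and 0.16.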

How the results depend on the processing

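Counts of called genes held within 1.5 times of 5677 higher and 5656 lower under most alternatives. Exceptions for the higher count were 3742 with all 11 libraries in the fit and 755 against a minimum log2 fold change of 1, for the lower count 784 with that minimum, and for changes of at least 2-fold 910 higher and 788 lower under a stricter filter (CPM from 1 upwards in 3 or more libraries), which leaves fewer genes. Leaving out 1 of the 6 libraries gave 5243 to 5748 higher and 5160 to 5824 lower. With the replicate block 5648 were higher and 5579 lower. The labels do not say whether the replicate numbers pair the samples. Same-numbered libraries deviated together at correlations of -0.0075, 0.0152 and -0.0525, and differently numbered ones at -0.0796 to 0.0831. With 3 libraries per group such values cannot settle whether the samples were paired. The count of differences between lines moved from 635 to 349 with the replicate block, to 3177 without OCI-AML3-FLT3-ITD control replicate 2, and ranged from 105 to 3177 as each library was left out. It was 105 and 184 without treated FLT3-ITD replicates 1 and 2, where the lone library left is assumed to vary like the other groups, 185 to 297 without any 1 of the OCI-AML3 libraries and 1200 without FLT3-ITD control replicate 1. No named gene except FLT3 changed sign. FLT3, not called at -0.01, was at 0.0704 with upper-quartile scaling, 0.14 with library totals (called), 0.0036 with no filter, 0.022 with the stricter filter, and -0.028 to 0.057 as each library was left out, above 0 without control replicate 1 or treated replicate 1 or 2. Calls of 12 named genes were lost with all 11 libraries in the fit, among them CD93, PFKL, KDM3A, KIF4A, MT-CYB, RPL39L, H2AC20 and CD4. The minimum of 1 was not passed by 94 named genes. Under the replicate block 9 of the 49 named differences were lost, those of CSF3R, FAM43A, FLI1, IFI16, LGALS9, PAICS, PTMA, VDR and XBP1. List medians moved by more than the spread between treated libraries for 48 of 53 lists with library totals and 43 with upper-quartile scaling. The count of higher members moved by over 1.5 times for 10 lists with library totals and 18 with all 11 libraries in the fit, and that of lower members for 4 and 12. The cause of these shifts was not tested. Depth limits genes near 3 counts, such as CSF1R with FHD-286.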

Other observations

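Long noncoding genes took part in the response and were more often higher. Of 1149 long noncoding RNA genes tested, 227 were at least 2-fold higher (19.8%) and 86 at least 2-fold lower (7.48%), and of 959 antisense genes 193 (20.1%) and 62 (6.47%), against 1027 (8.19%) and 951 (7.58%) of 12544 protein-coding genes. Their level goes with this count, because under 1 CPM 24.4% of coding and 22.9% of long noncoding genes were at least 2-fold higher, and 15.2% and 8.12% at least 2-fold lower. LINC00968 rose from 0.715, 1.07 and 0.945 CPM to 28.8, 27.6 and 28.5 CPM, WDFY3-AS2 from 1.02, 0.812 and 0.875 CPM to 4.70, 5.45 and 4.97 CPM and BAIAP2-DT from 2.93, 3.89 and 3.67 CPM to 13.8, 12.8 and 14.1 CPM, with no overlap between groups in any of them. CCDC26, a noncoding gene near MYC, fell from 9.02, 8.99 and 8.73 CPM to 1.27, 1.22 and 1.55 CPM, and MIR9-3HG, the host gene of a copy of microRNA 9, from 7.24, 7.84 and 8.07 CPM to 0.158, 0.269 and 0.281 CPM. Antisense counts can hold reads of the opposite strand, since the strand setting is not given in the sources used here.

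Genes that lie side by side did not always move together. SPI1 ends at 47378576 on chromosome 11 (GRCh38) and SLC39A13, a zinc transporter gene, starts 28555 bases further on. SLC39A13 rose from 36.9, 39.5 and 41.3 CPM to 190.4, 185 and 184 CPM, a log2 fold change of 2.25, where that of SPI1 was -2.83. On chromosome 6 the histone genes H2BC4 and H2AC6 lie 218 bases apart and both rose, by 2.86 and 2.84. These pairs were picked after their values were seen. The control libraries also varied more among themselves than the treated ones, with a median coefficient of variation over 8949 genes of at least 10 CPM of 5.04% against 2.70%, and its cause was not tested.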
